A study of Mus musculus with 46 samples.

Results

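The 57 genes described here are type I interferon-stimulated genes, a named list of effectors, sensors and signalling proteins whose transcription rises in cells exposed to type I interferon. They were taken by symbol from the count table of the series, which lists 20999 genes, and all 57 were found there. The list was drawn up with earlier results of these data known. All 57 were also among the 12230 genes that passed the filter on low counts, so each entered every test.

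The samples were microglia, the resident macrophages of the brain, sorted from male C57BL/6 mice, and the series asked how proliferating microglia of different origins compare. RNA was sequenced in 10 libraries, 2 in each of 5 groups. Adult microglia came from untreated wild-type mice of 90 days, which carry no reporter; their labels call them Ki67-negative, Ki67 being a protein of cycling cells, but name no sort for it. Microglia of postnatal day 8 (PND8) came from Ki67-rfp reporter mice and were sorted into Ki67-negative and Ki67-positive cells. Repopulating microglia came from Ki67-rfp mice of 75 days that had received PLX5622, an inhibitor of the CSF1 receptor that removes microglia, for 17 days from day 55 and had then recovered for 3 days, and they were sorted in the same way. H3K27ac, an acetylated histone residue found where promoters and enhancers are active, was profiled in 12 libraries of fixed cells from wild-type mice, sorted with an antibody to Ki67 where sorted: adult (60 and 65 days), PND8 Ki67-negative and Ki67-positive, cuprizone Ki67-negative and Ki67-positive (4 weeks of the demyelinating agent cuprizone, 90 days) and repopulating Ki67-positive cells (90 days, PLX5622 from day 70). ATAC-seq, which maps open chromatin, had 1 library each of adult (80 days), PND8 Ki67-positive and repopulating Ki67-positive cells (75 days, PLX5622 from day 55); the latter pair are titled Ki67rfp but have a wild-type genotype label. H3K4me3, a mark of promoters, had 2 adult libraries (75 days), and Rpb2, a subunit of RNA polymerase II, had 2 adult libraries (60 and 65 days by their age labels) and 1 of PND8 Ki67-positive cells. No RNA library of the cuprizone groups was analysed here. Among RNA groups, age, reporter genotype and drug treatment differed together between adult and repopulating cells. Age and genotype differed between adult and PND8 cells, and age and drug treatment between PND8 and repopulating cells, which share the reporter. Against adult cells, the H3K27ac groups, all from wild-type mice, differed in age, and the repopulating and cuprizone cells in treatment as well. Factors that differ together in a comparison cannot be told apart. The labels do not separate cells that survived the inhibitor from their progeny.

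Type I interferons bind the receptor IFNAR1-IFNAR2, which activates the kinases JAK1 and TYK2. These phosphorylate transcription factors, STAT2 among them, which join IRF9 and bind the interferon-stimulated response element (ISRE) in the promoters of target genes. Among the products are enzymes that sense or degrade viral RNA, the ubiquitin-like protein ISG15 with the enzymes that attach and remove it, and more of the pathway's own sensors and factors. In the brain, microglia both make and answer these cytokines, and a basal interferon tone is known in the healthy tissue.

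The ISRE core was searched on both strands as GAAA, any 2 bases and GAAA again, in the RefSeq promoter of each gene (build GRCm38.p6, 250 bases before to 50 after the start), which was given for 44 of the 57 genes. A match was found in 20 of the 44 promoters (45.5%) and in 314 of the 9734 promoters of genes tested (3.23%). A match is a description of letters in these windows. Of the 20, 16 had an ISRE match before the start, the nearest one lying between 12 and 222 bases upstream with a median of 70.5. The sequences below are shown because they belong to the genes with the largest rises in repopulation, or to the reference genes followed through the text, and hold such a match. They run from 60 bases before the first match, or from the window's edge, to the last base before the RefSeq start, 5′ to 3′ on the gene's own strand, with every ISRE match in capitals.
Oas1g: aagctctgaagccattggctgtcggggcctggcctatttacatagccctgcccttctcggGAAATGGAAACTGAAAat
Ifit3b: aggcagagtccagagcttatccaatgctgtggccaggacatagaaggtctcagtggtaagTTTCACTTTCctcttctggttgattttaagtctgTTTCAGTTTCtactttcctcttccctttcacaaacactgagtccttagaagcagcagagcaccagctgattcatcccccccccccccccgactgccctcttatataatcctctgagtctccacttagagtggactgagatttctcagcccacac
Rsad2: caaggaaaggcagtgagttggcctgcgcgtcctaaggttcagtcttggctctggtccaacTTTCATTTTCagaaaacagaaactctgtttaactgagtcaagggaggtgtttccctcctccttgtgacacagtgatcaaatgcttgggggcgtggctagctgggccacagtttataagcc
Oas1a: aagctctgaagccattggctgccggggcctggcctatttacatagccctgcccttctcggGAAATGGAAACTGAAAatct
Oas3: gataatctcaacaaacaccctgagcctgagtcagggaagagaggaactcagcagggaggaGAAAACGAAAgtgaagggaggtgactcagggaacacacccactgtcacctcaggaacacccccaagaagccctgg
Ifit3: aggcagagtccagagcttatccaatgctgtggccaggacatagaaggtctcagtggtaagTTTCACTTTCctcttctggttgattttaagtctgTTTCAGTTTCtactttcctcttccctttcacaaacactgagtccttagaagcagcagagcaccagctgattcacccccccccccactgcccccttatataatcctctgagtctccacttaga
Isg15: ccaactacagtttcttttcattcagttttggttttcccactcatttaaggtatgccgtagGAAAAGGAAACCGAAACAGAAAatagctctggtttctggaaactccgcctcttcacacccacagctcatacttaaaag
Stat2: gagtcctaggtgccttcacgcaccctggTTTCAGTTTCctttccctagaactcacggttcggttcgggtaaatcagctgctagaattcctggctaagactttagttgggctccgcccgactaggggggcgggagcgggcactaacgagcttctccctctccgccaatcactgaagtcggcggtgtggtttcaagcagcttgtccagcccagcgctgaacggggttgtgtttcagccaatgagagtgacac
These stretches lie at chr5:120887614-120887691 (Oas1g, minus strand), chr19:34607709-34607956 (Ifit3b, plus strand), chr12:26456453-26456632 (Rsad2, minus strand), chr5:120907526-120907605 (Oas1a, minus strand), chr5:120777660-120777794 (Oas3, minus strand), chr19:34583313-34583528 (Ifit3, plus strand), chr4:156200819-156200956 (Isg15, minus strand) and chr10:128270248-128270497 (Stat2, plus strand). Oas1g and Oas1a are neighbouring copies: over the 78 bases shown for Oas1g they differ at 1. The Ifit3 and Ifit3b stretches are identical over their first 167 bases. How far reads of such near-identical genes were shared or split in the deposited counts is not known, so values for Oas1a, Oas1g, Ifit3, Ifit3b, and the Gbp, Slfn and Phf11 copies are uncertain in that respect.

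The RNA libraries held between 6865903 and 10287876 counted tags. Levels below are CPM, counts scaled to library size with the TMM method, and TPM, the deposited values per transcript length, where different genes are compared. Each library of a group is labelled an independent biological replicate, and the p-values measure the spread between these libraries only. The summed level of 10 microglial markers was between 7382 and 9835 CPM in every library, and 6 lymphocyte markers summed to at most 1.21 CPM. Markers of border macrophages (6 genes) summed to 63.3 and 77.1 CPM in adult, 599 to 857 at PND8 and 26.2 to 42.9 in repopulation, and markers of monocytes or neutrophils (9 genes) to 229 and 69.4, 23.2 to 33.6 and 15.8 to 18.7 CPM. Genes of the dissociation response (10 genes) summed to 682 and 698 CPM in adult, 361 to 1654 at PND8 and 311 to 344 in repopulation. In repopulating cells the border-macrophage, monocyte and dissociation sums were thus below those of adult cells, and what part they had in any result was not tested. A list of 5 plasmacytoid dendritic cell markers, which includes the microglial gene Siglech and the gene Bst2 described here, was between 924 and 1276 CPM, mostly from Siglech (529 to 840 CPM) and Tcf4 (317 to 421 CPM). Of its other genes Ccr9 was at 0.305 to 0.925 CPM and Ly6d at 0 in every library. Because these are bulk libraries, fewer cells with a transcript and less of it per cell cannot be told apart.

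Nearly the whole set was higher in repopulating than in adult microglia, in the Ki67-positive and in the Ki67-negative sort. Because the 57 were chosen with earlier results of these data known, their shares beside those of all genes are a description. The 57 genes together took 0.325% and 0.327% of all counts in the adult libraries, 0.280% to 0.320% at PND8, and 0.749% to 0.818% in the 4 repopulating libraries. In Ki67-positive cells 54 of 57 rose and 1 fell (edgeR, adjusted p under 0.05), against a background of 23.9% of all genes higher and 21% lower. In Ki67-negative cells 55 of 57 rose and 0 fell, with 21.5% and 17.6% of all genes called in those directions. At an unadjusted p under 0.05 these comparisons held 57 and 55 of the genes in either direction, beside 6402 and 5802 of all 12230 genes tested. The median log2 fold change over the 57 was 1.83 (3.56-fold) in Ki67-positive and 1.86 (3.63-fold) in Ki67-negative cells, beside -0.01 and -0.01 over all genes tested. The sets of 54 and 55 shared 54 genes, and both comparisons use the same 2 adult libraries. In 51 genes the call held in both sorts through each of the 10 fits that left out 1 library.

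**Figure D1:**
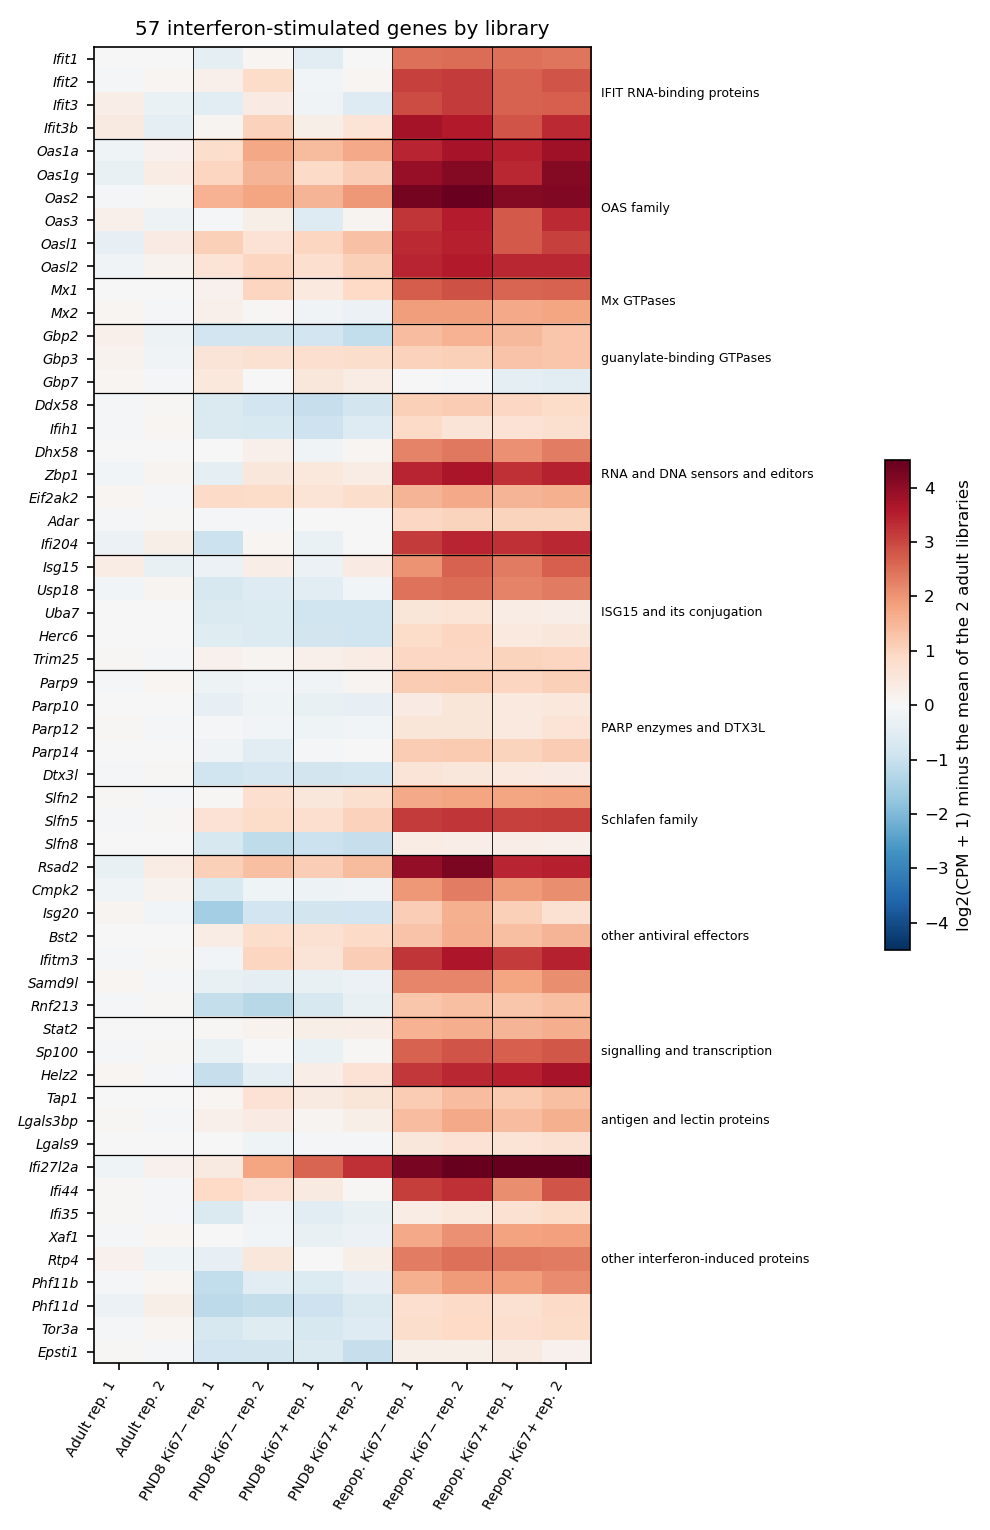
Each row is 1 of the 57 genes, grouped by role, and each column 1 RNA library; colour is log2(CPM + 1) minus the mean of the 2 adult libraries. The 4 repopulating columns are red in nearly every row, while the 4 PND8 columns are red in some rows and blue in others; Gbp7 is the row whose repopulating Ki67-positive libraries are below adult.

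The IFIT proteins, which bind viral RNA that lacks the marks of self, rose in all 4 cases. Ifit3 was at 9.60 and 5.87 CPM in the 2 adult libraries, 4.95 and 9.91 in PND8 Ki67-negative and 6.61 and 4.74 CPM in PND8 Ki67-positive cells. In repopulation it was at 64.8 and 73.8 CPM without and 53.1 and 54.7 CPM with the Ki67 signal. The repopulating libraries stood far above all others, which overlapped. The log2 fold change of Ifit3 over adult was 2.79 ± 0.26 (SE) in Ki67-positive cells (edgeR adjusted p = 1.82e-06). Ki67-negative cells gave 3.15 ± 0.26 (edgeR adjusted p = 7.08e-07). The other IFIT genes rose by between 2.71 (Ifit1) and 4.41 (Ifit3b) on the log2 scale in Ki67-positive cells.

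The OAS family, whose enzymes make the 2′-5′-linked oligoadenylates that switch on RNase L, had the highest median rise of the roles, 3.81 in Ki67-positive cells: all 6 were called, with log2 fold changes from 3.48 to 5.75 (Ki67-positive) and from 3.59 to 5.97 (Ki67-negative). Oasl2 was at 9.37 and 12.2 CPM in adult, 17.1 and 21.8 in PND8 Ki67-negative and 18.8 and 23.8 CPM in PND8 Ki67-positive cells. In repopulation it was at 124 and 137 CPM without and 121 and 121 CPM with the Ki67 signal. The 3 contexts did not overlap and ran in the order adult, PND8, repopulation. Oas2 ran in the same order, from 10.9 and 11.7 CPM in adult through 34.8 to 46.5 at PND8 to between 212 and 264 in repopulation, a log2 fold change over adult of 4.25 ± 0.15 in Ki67-positive cells (edgeR adjusted p = 7.66e-10). Oas1g gave the highest fitted change of the set, 5.75 ± 0.59 (edgeR adjusted p = 4.65e-06), but from 0 and 5 reads in the adult libraries against 108 to 173 in repopulation, so its size depends on few reads. The family's other members Oas1a, Oas3 and Oasl1 rose by 3.90, 3.66 and 3.72. Among the genes of the Mx GTPase family, Mx1 was 6.51-fold higher in Ki67-positive cells and Mx2 rose by 1.81 on the log2 scale.

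Other antiviral effectors rose in all 7 cases. Ifitm3, a membrane protein that blocks viral entry, was at 5.55 and 6.11 CPM in adult, 5.20 and 12.5 in PND8 Ki67-negative and 9.14 and 13.6 CPM in PND8 Ki67-positive cells. In repopulation it was at 62.7 and 83.8 CPM without and 59.6 and 75.1 CPM with the Ki67 signal. Its log2 fold change in Ki67-positive cells was 3.53 ± 0.31 (edgeR adjusted p = 1.11e-06), and the repopulating libraries again stood apart. Bst2 (tetherin, which holds budding virions at the cell surface) moved less: 30.3 and 31.0 CPM in adult, 39.0 to 56.4 over the 4 PND8 libraries and 76.3 to 96.6 over the 4 repopulating ones, a log2 fold change of 1.47 ± 0.16 (edgeR adjusted p = 8.46e-06). Rsad2 (viperin, which makes a chain-terminating nucleotide) rose by 3.76 ± 0.24 and its chromosomal neighbour Cmpk2, a mitochondrial nucleotide kinase, by 2.28. Isg20, an exonuclease, was called at 1.08 ± 0.39 (edgeR adjusted p = 0.0371), but the call was lost without adult replicate 1 or 2 (adjusted p = 0.0806 and 0.169), without repopulating Ki67-positive replicate 1 or 2 (0.242 and 0.0578) and without repopulating Ki67-negative replicate 2 (0.0511).

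ISG15 and its conjugation machinery showed unequal changes. Isg15 was at 3.47 and 1.83 CPM in adult, 1.98 and 3.39 in PND8 Ki67-negative and 1.98 and 3.58 CPM in PND8 Ki67-positive cells. In repopulation it was at 13.5 and 21.5 CPM without and 16.9 and 21.9 CPM with the Ki67 signal, so adult and PND8 libraries overlapped and repopulating ones did not. Its log2 fold change in Ki67-positive cells was 2.85 ± 0.38 (edgeR adjusted p = 4.86e-05). Isg15 is a short transcript, and the deposited counts kept at most 3 tags per position, which can hold down such genes. Usp18, the protease that removes ISG15 and also damps the receptor, was at 8.44 and 10.0 CPM in adult, 5.20 to 8.44 over the PND8 libraries and 46.8 to 57.4 over the repopulating ones, a rise of 2.40 ± 0.17 in Ki67-positive cells (edgeR adjusted p = 1.35e-07). The activating enzyme Uba7 rose by 0.32 ± 0.08 (edgeR adjusted p = 0.00326) and the ligase Herc6 by 0.47 ± 0.10 (edgeR adjusted p = 0.00138), far less than Isg15 or Usp18.

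All 7 RNA and DNA sensors and editors rose, over a wide range. Zbp1, a sensor of Z-form nucleic acid that can trigger cell death, was at 2.78 and 3.54 CPM in adult, 2.10 to 4.95 over the PND8 libraries and 39.1 to 52.3 over the repopulating ones, a log2 fold change of 3.72 ± 0.28 in Ki67-positive cells (edgeR adjusted p = 2.26e-07). The cytosolic RNA sensors Ifih1 (MDA5) and Ddx58 (RIG-I) rose by 0.70 ± 0.13 and 0.89 ± 0.10, and Adar, which edits double-stranded RNA, by 1.00. Ifih1 was at 50.2 and 56.0 CPM in adult, 27.2 to 35.3 over the PND8 libraries and 79.8 to 96.5 over the repopulating ones, so that the 3 contexts did not overlap and PND8 was the lowest. Stat2, the one member that belongs to the transducing complex itself, was at 82.1 and 79.3 CPM in adult, 83.5 to 99.3 at PND8 and 233 to 255 in repopulation. Its log2 fold change was 1.60 ± 0.09 (edgeR adjusted p = 1.24e-08), and its gene model overlaps that of Apof on the same strand over 752 bases.

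**Figure D2:**
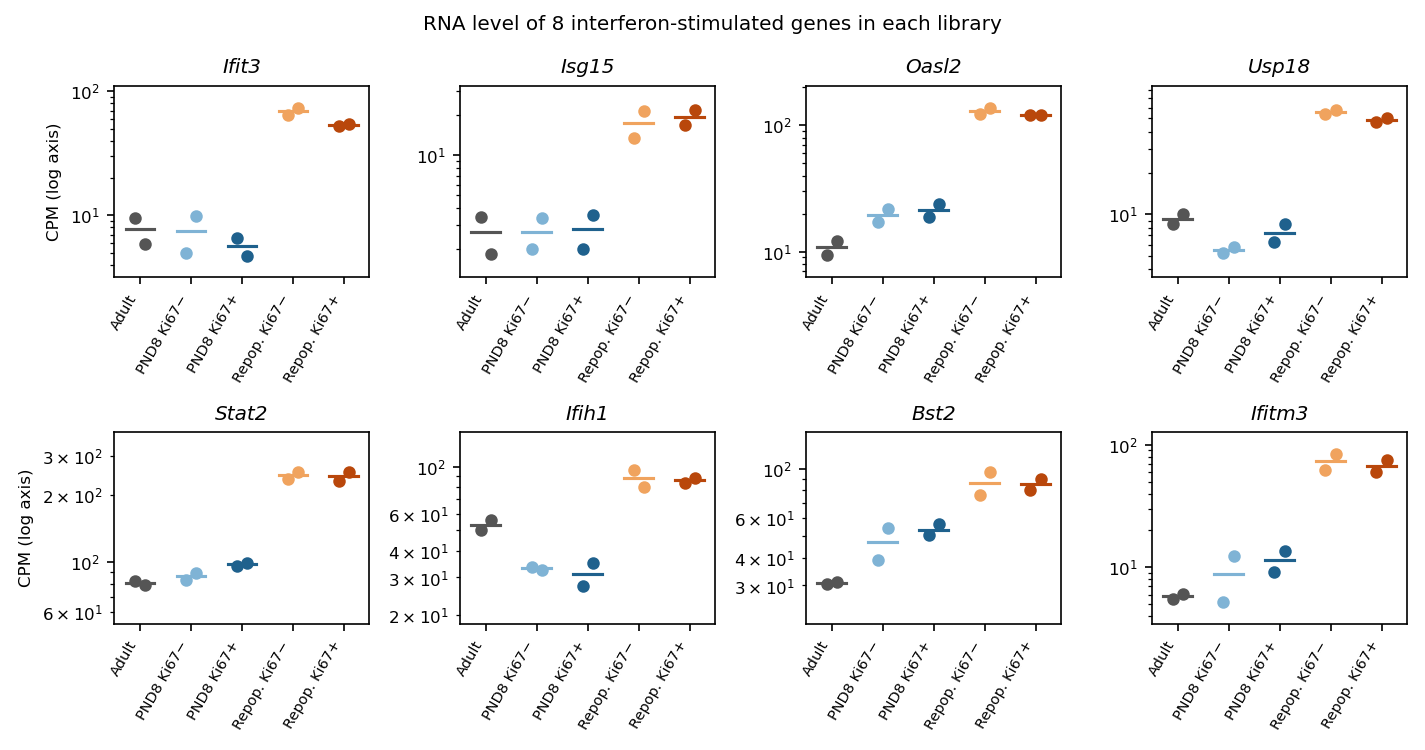
Each panel is 1 gene, each point 1 RNA library in CPM on a log axis that does not start at 0, and each short line the mean of the 2 libraries of a group. In all 8 genes the 4 repopulating libraries are above the 6 others; in Ifih1 and, narrowly, Usp18 the 4 PND8 libraries are all below both adult ones, and Oasl2, Bst2 and Stat2 run in the order adult, PND8, repopulation.

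Of the 57 genes, 3 did not rise in both sorts. Gbp7, a guanylate-binding GTPase, was at 154 and 136 CPM in adult and at 107 and 105 in repopulating Ki67-positive cells, and fell by 0.46 on the log2 scale (SE 0.13, edgeR adjusted p = 0.0105). That call was lost without adult replicate 1 (adjusted p = 0.107) and without repopulating Ki67-positive replicate 2 (adjusted p = 0.0582). In Ki67-negative cells Gbp7 was at 142 and 135 CPM, within the adult range or just below it. Its family members Gbp2 and Gbp3 rose by 1.43 and 1.28. Epsti1 had log2 fold changes of 0.31 ± 0.14 and 0.27 ± 0.14 and was past the threshold in neither sort (edgeR adjusted p = 0.0917 and 0.15). Slfn8 was past it only in Ki67-negative cells, at 0.32 ± 0.11 (edgeR adjusted p = 0.0333), and that call was lost without any 1 of the 4 libraries compared (adjusted p from 0.0907, without repopulating Ki67-negative replicate 2, to 0.145, without adult replicate 2). The difference between sorts was not past the threshold for Epsti1 or Slfn8. For Gbp7 it was -0.39 (edgeR adjusted p = 0.146), and it passed with a replicate block (edgeR adjusted p = 0.0265), with the header code as a term (0.00679) without the filter on low counts (0.00711), and without PND8 Ki67-negative replicate 1 (0.0221) or 2 (0.0167). Slfn5, of the same Schlafen family, rose by 3.16.

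Genes with low adult levels tended to have larger changes. In adult cells the set spanned 0.219 TPM (Ifi44) to 188 TPM (Lgals9, a galectin), with 5 genes under 1 TPM and a median of 11.9 TPM. In repopulating Ki67-positive cells it spanned 3.54 TPM (Ifi44) to 347 TPM (Lgals3bp), no gene was under 1 TPM, and the median was 53.2 TPM. Spearman's rho between adult log2(TPM + 0.1) and the log2 fold change was -0.81 over the 57 genes in Ki67-positive cells. Both quantities contain the adult libraries, so part of that relation follows from their shared error. Against the level at PND8, which shares no library with the fold change over adult, rho was -0.55, still over the same genes and subject to the same compression of low counts. Split by their mean TPM over all groups, the 28 lower genes had a median log2 fold change of 2.75 and the 29 higher ones 1.28. Ifi27l2a, a mitochondrial-membrane protein of unsettled function, departed from that order: 8.45 TPM in adult and 313 TPM in repopulating Ki67-positive cells, a log2 fold change of 5.29 ± 0.38 (edgeR adjusted p = 1.67e-07).

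**Figure D3:**
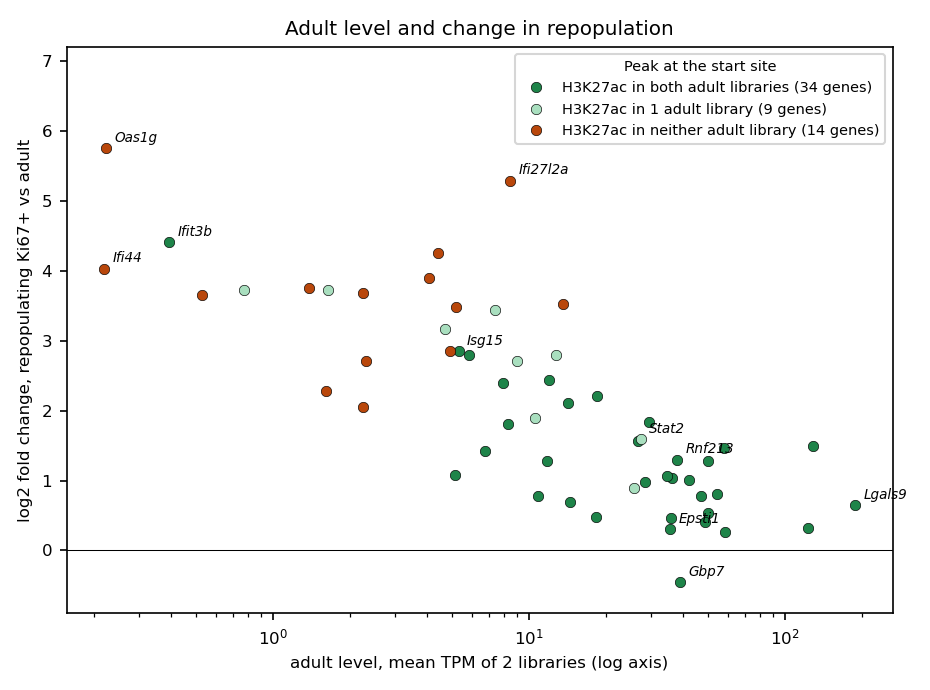
Each point is 1 of the 57 genes: the x axis is its adult level (mean TPM of 2 libraries, log axis), the y axis its log2 fold change in repopulating Ki67-positive cells, and the colour whether an H3K27ac peak lay at its start site in both, 1 or neither of the adult H3K27ac libraries. Changes fall from left to right, and the 14 genes without an adult peak have fold changes between 2.05 and 5.75.

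At PND8 the same genes split. In Ki67-positive cells 19 of 57 were higher and 14 lower than in adult cells (edgeR, adjusted p under 0.05), beside 25.1% and 24.3% of all genes, and in Ki67-negative cells 17 were higher and 17 lower, beside 25.4% and 21.4%. The medians were -0.02 in both, close to those of all genes (0.00 and 0.03). The count of calls rested on single adult libraries: without adult replicate 2 it was 21 rather than 33 in Ki67-positive cells, and without adult replicate 1 it was 20 rather than 34 in Ki67-negative cells. Where a fold above 2 was also asked, 9 and 10 were left, counts for which no share over all genes is given. The genes were called higher in both sorts in 14 cases and lower in both in 13, joint counts for which no share over all genes is given. Through each fit without 1 library, 7 stayed higher in both sorts (Oas1a, Oas2, Oasl2, Gbp3, Eif2ak2, Slfn5 and Rsad2) and 8 stayed lower in both (Ddx58, Ifih1, Uba7, Herc6, Dtx3l, Slfn8, Tor3a and Epsti1).

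The higher group at PND8 was led by OAS genes, Rsad2 and, in Ki67-positive cells, Ifi27l2a. Oas2 was 1.84 ± 0.15 above adult on the log2 scale in Ki67-positive cells (edgeR adjusted p = 5.81e-07) and Oasl2 0.98 ± 0.18 (edgeR adjusted p = 0.000465). Rsad2 was at 2.43 and 4.52 CPM in adult and at 8.17 to 10.6 over the 4 PND8 libraries, 1.45 ± 0.27 higher in Ki67-positive cells (edgeR adjusted p = 0.000631). Ifi27l2a was 3.40 ± 0.41 above adult in Ki67-positive cells (edgeR adjusted p = 1.68e-05). Its change in the Ki67-negative sort was 1.60 ± 0.47 (edgeR adjusted p = 0.014), a call that was lost without adult replicate 1 (1.34, adjusted p = 0.108) and without PND8 Ki67-negative replicate 2 (0.51, adjusted p = 0.437). Oas1g and Oasl1 were also called higher in both sorts, but in neither sort did these calls hold through every fit without 1 library. In Ki67-positive cells both were lost without adult replicate 1. Eif2ak2, the kinase PKR, which halts translation on double-stranded RNA, was 0.71 higher.

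In Ki67-positive cells the largest falls at PND8 were those of Isg20, Gbp2, Slfn8 and Ddx58, which belong to different roles. Isg20 held 32 and 24 reads in the adult and 13 and 12 in the PND8 Ki67-positive libraries. Its call in this sort was lost in fits that left out 1 library. Of the 7 sensors 2 fell and 1 rose, and of the 5 genes of ISG15 and its conjugation 2 fell and 1 rose. Ddx58 fell by 0.94 in Ki67-positive cells (SE 0.11, edgeR adjusted p = 1.3e-05) and Ifih1 by 0.77 (SE 0.14, edgeR adjusted p = 0.000533). Uba7 was at 257 and 255 CPM in adult and at 136 to 168 over the PND8 libraries, and fell by 0.91 (SE 0.08, edgeR adjusted p = 6.06e-07). Herc6 fell by 0.88 and Slfn8 by 1.02, and Dtx3l, a ubiquitin ligase that works with Parp9, by 0.82. Gbp2 was at 12.7 and 9.04 CPM in adult and 4.51 to 5.69 over the PND8 libraries, and fell by 1.12 (SE 0.23, edgeR adjusted p = 0.00135). Dtx3l and Parp9 start 557 bases apart on opposite strands and overlap there; Parp9 was at -0.01. Isg20 had the lowest fitted change of the Ki67-negative comparison, -1.74 ± 0.48 (edgeR adjusted p = 0.00957), from at most 3.70 CPM in any adult or PND8 library, and its call was lost without adult replicate 1 (adjusted p = 0.0602). In 11 genes the calls were opposite in the 2 contexts and in both sorts: lower than adult at PND8 and higher than adult in repopulation. These were Gbp2, Ddx58, Ifih1, Uba7, Herc6, Parp10, Dtx3l, Isg20, Rnf213, Phf11d and Tor3a. The lower call at PND8 held in both sorts without any 1 library for Ddx58, Ifih1, Uba7, Herc6, Dtx3l and Tor3a. It did not for Gbp2, Parp10, Isg20, Rnf213 and Phf11d. No share over all genes is given for this joint count. Of the 57 genes, 13 were lower at PND8 in both sorts and 54 were higher in repopulation in both. The higher calls of Isg20 and Phf11d in repopulation were lost in both sorts in fits that left out 1 library, adult replicate 1 in the case of Phf11d. Both contrasts use the same adult libraries.

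Set directly against PND8, which shares no library with repopulation, 56 of 57 genes were higher in repopulating Ki67-positive cells and 1, Gbp7, was lower (edgeR, adjusted p under 0.05; 16.7% and 14.2% of all genes). In Ki67-negative cells 56 were higher and 0 lower (18% and 18.6% of all genes). The median log2 differences were 2.03 and 2.22, beside 0.00 and -0.04 over all genes. Differences in Ki67-positive cells ran from -0.88 ± 0.13 (Gbp7, edgeR adjusted p = 0.000155) to 4.01 (Oas3). For the genes already raised at PND8 a further rise remained: 2.40 ± 0.13 for Oas2 (edgeR adjusted p = 1.58e-08) and 2.50 ± 0.15 for Oasl2 (edgeR adjusted p = 4.74e-08). Each library's file header holds a number, its header code, whose meaning is given nowhere in the sources used here. PND8 replicate 2 and repopulating replicate 1 share it. Within that code, repopulating cells were above PND8 in 56 of 57 genes in each sort, with median log2 differences of 1.77 (Ki67-positive) and 1.92 (Ki67-negative). The adult libraries share a code with no other library, so that the code and the adult group cannot be told apart.

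**Figure D4:**
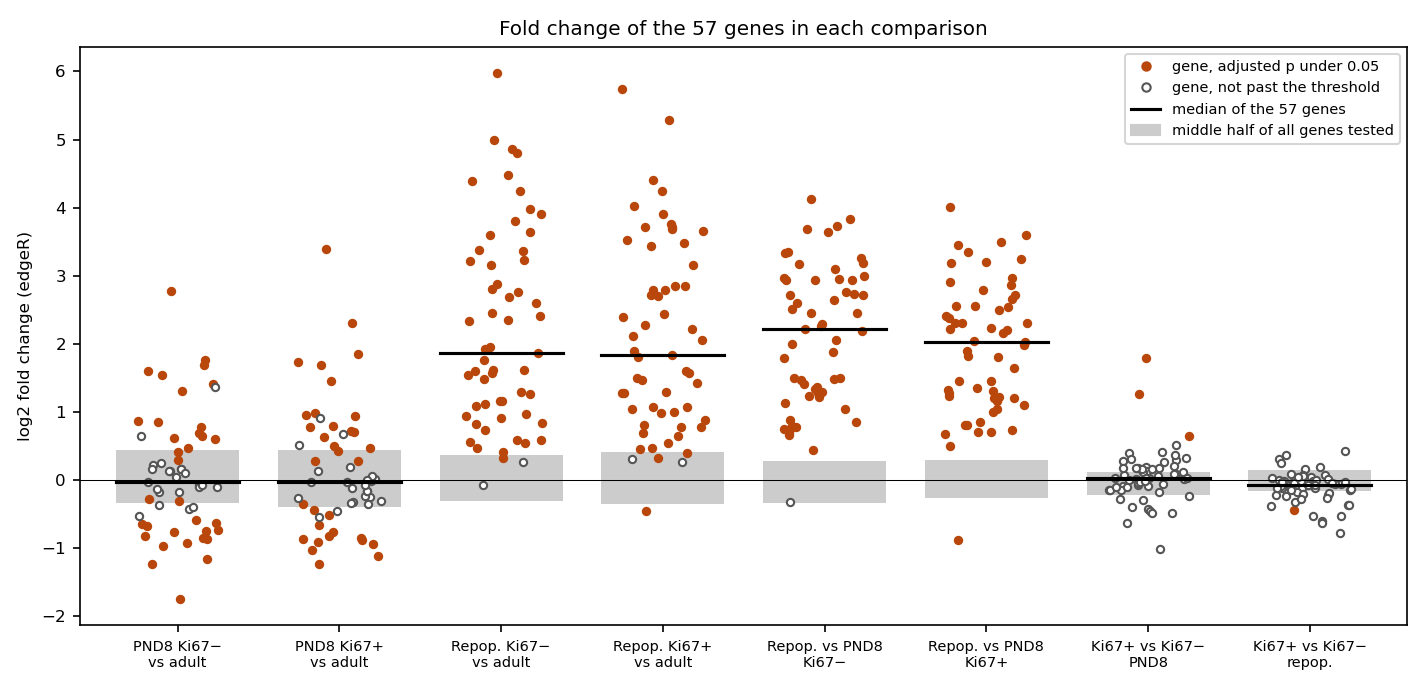
Each point is 1 of the 57 genes at its log2 fold change in the comparison named below; filled points passed an edgeR adjusted p of 0.05, open ones did not, the black line is the median of the 57 and the grey band the middle 50% of all 12230 genes tested. Nearly all points lie above the band in the 4 comparisons of repopulating cells, Gbp7 being the lowest in each, on both sides of it at PND8, and mostly within or near it between Ki67 sorts.

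Few of the genes were called between Ki67-positive and Ki67-negative cells of the same context. At PND8 3 of 57 were higher and 0 lower in Ki67-positive cells (edgeR, adjusted p under 0.05; 2.75% and 3.15% of all genes), and in repopulation 0 were higher and 1 lower (1.87% and 0.867%). At an unadjusted p under 0.05 the counts were 8 and 9 in either direction, beside 2410 and 1927 of all 12230 genes tested. Helz2, a helicase and transcriptional coactivator, was at 6.81 and 10.7 CPM in PND8 Ki67-negative and 18.5 and 24.4 in PND8 Ki67-positive cells, a log2 difference of 1.26 ± 0.20 (edgeR adjusted p = 0.00192). The adult level was 16.0 and 14.2 CPM, and Helz2 was called higher than adult in the Ki67-positive sort (0.51, edgeR adjusted p = 0.0407) and lower in the Ki67-negative one. Both calls against adult were lost without adult replicate 1 (adjusted p = 0.0835 and 0.0755). The first was also lost without adult replicate 2 (0.193), with limma (0.147) and without PND8 Ki67-positive replicate 2 (a log2 fold change of 0.30, adjusted p = 0.309), and the second without PND8 Ki67-negative replicate 1 (-0.49, adjusted p = 0.0735) and with limma on log2(TPM + 1) (0.0503). Ifi27l2a was at 3.71 and 11.2 against 20.8 and 33.5 CPM (1.80 ± 0.33, edgeR adjusted p = 0.0052) and Rnf213, a very large ubiquitin ligase, at 200 and 179 against 256 and 337 CPM (0.65 ± 0.12, edgeR adjusted p = 0.005). Both of these lost the call without PND8 Ki67-positive replicate 2 (adjusted p = 0.0811 and 0.0758). In repopulation Herc6 was at 115 and 125 CPM in Ki67-negative and 86.7 and 90.8 in Ki67-positive cells, and fell by 0.43 (SE 0.09, edgeR adjusted p = 0.0248). That call was lost without either adult library (adjusted p = 0.0539 for each) and without any 1 of the 4 repopulating libraries (adjusted p from 0.0883, without Ki67-negative replicate 1, to 0.158, without Ki67-positive replicate 2). Whether the Ki67 difference itself changed between contexts was tested as an interaction: 0 of the 57 genes, and 0 of all genes, passed with edgeR, with 7 and 613 at an unadjusted p under 0.05. With the header code as a term 2 members passed, and without the filter on low counts 4.

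The rest of the pathway was read from fixed lists, to be set against the shares of all genes called in the same comparisons: 23.9% higher and 21% lower in the repopulating Ki67-positive sort, and 21.5% and 17.6% in the Ki67-negative one. Of 19 interferon ligand genes, 10 had 0 counts in every library, the other 9 held 15 reads in all over the 10 libraries, and none passed the filter on low counts. Ifnb1 had the highest single count, 4 reads in repopulating Ki67-negative replicate 1. A level that gives fewer than 3 reads in a library was not detectable at this depth. The files do not cover interferon made by other cells of the brain. Of 10 receptor and transducer genes, 5 were higher and 1 lower in repopulating Ki67-positive cells. Irf9 rose by 0.75, while the receptor chains were at 0.24 (Ifnar1) and -0.05 (Ifnar2). Of 7 interferon regulatory factors, Irf7, which carries the signal into renewed interferon transcription, was the one that rose, by 3.11, and Irf2 and Irf4 fell by 0.43 and 1.65. Of 12 upstream sensing genes tested, 0 rose and 5 fell in Ki67-positive cells, among them the endosomal RNA receptor Tlr7 (fell by 0.55) and the adaptor Myd88 (fell by 0.57), while 2 rose and 3 fell in Ki67-negative cells. Among 7 negative regulators, the DNA exonuclease Trex1 rose by 1.08 and Samhd1 by 0.32, and 3 fell. Socs1 was at -0.10.

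Genes that lean towards interferon-gamma were mixed, beside the same shares of all genes. Of 9 tested, 4 rose in both sorts of repopulating cells: in Ki67-positive cells Gbp4 rose by 3.43, Gbp6 by 2.39, the chemokine Cxcl10 by 1.84 and Irgm1 by 0.51. In Ki67-positive cells 2 of the 9 fell, among them Ciita, the master factor of MHC class II, by 2.00. In Ki67-negative cells 0 were called lower. Igtp was at -0.06, Gbp5 at -0.36 and Cxcl9 at 0.20, all without passing the threshold. At PND8 none of these 9 genes rose and 5 fell in each sort, where 25.1% and 25.4% of all genes rose and 24.3% and 21.4% fell.

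At the chromatin level, members were scored as marked when a deposited peak overlapped the start site with 1 kb on each side. Peaks were called by the authors in each library separately. Peaks at single genes were not tested between groups, so what follows is a description. H3K27ac was at the start site in both adult libraries for 34 of the 57 genes (59.6%; 68.7% of 12227 genes tested), in both for 41 in PND8 Ki67-negative (80.5% of genes), 43 in PND8 Ki67-positive (82.3%), 44 in cuprizone Ki67-negative (73.4%), 52 in cuprizone Ki67-positive (76.8%) and 50 in repopulating cells (79.0%). The share among the 57 was 77.2% and 91.2% in cuprizone Ki67-negative and Ki67-positive cells and 87.7% in repopulation, above that of all genes, and 71.9% and 75.4% at PND8, below it. The lists differ in length: adult replicate 1 has 19572 peaks and the others between 24082 and 30539. Limited to the highest-scoring peaks of the shortest list, the counts were 28 in adult, 28 and 31 at PND8, 35 and 36 in cuprizone Ki67-negative and Ki67-positive cells, and 30 in repopulation, where 60.0% of genes in adult, 59.6% and 61.9% at PND8, 54.2% and 56.2% in cuprizone and 56.9% in repopulation were marked. On that footing the 57 stood above all genes in the cuprizone groups (35 and 36 of 57) and not in repopulation (30 of 57).

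**Figure D5:**
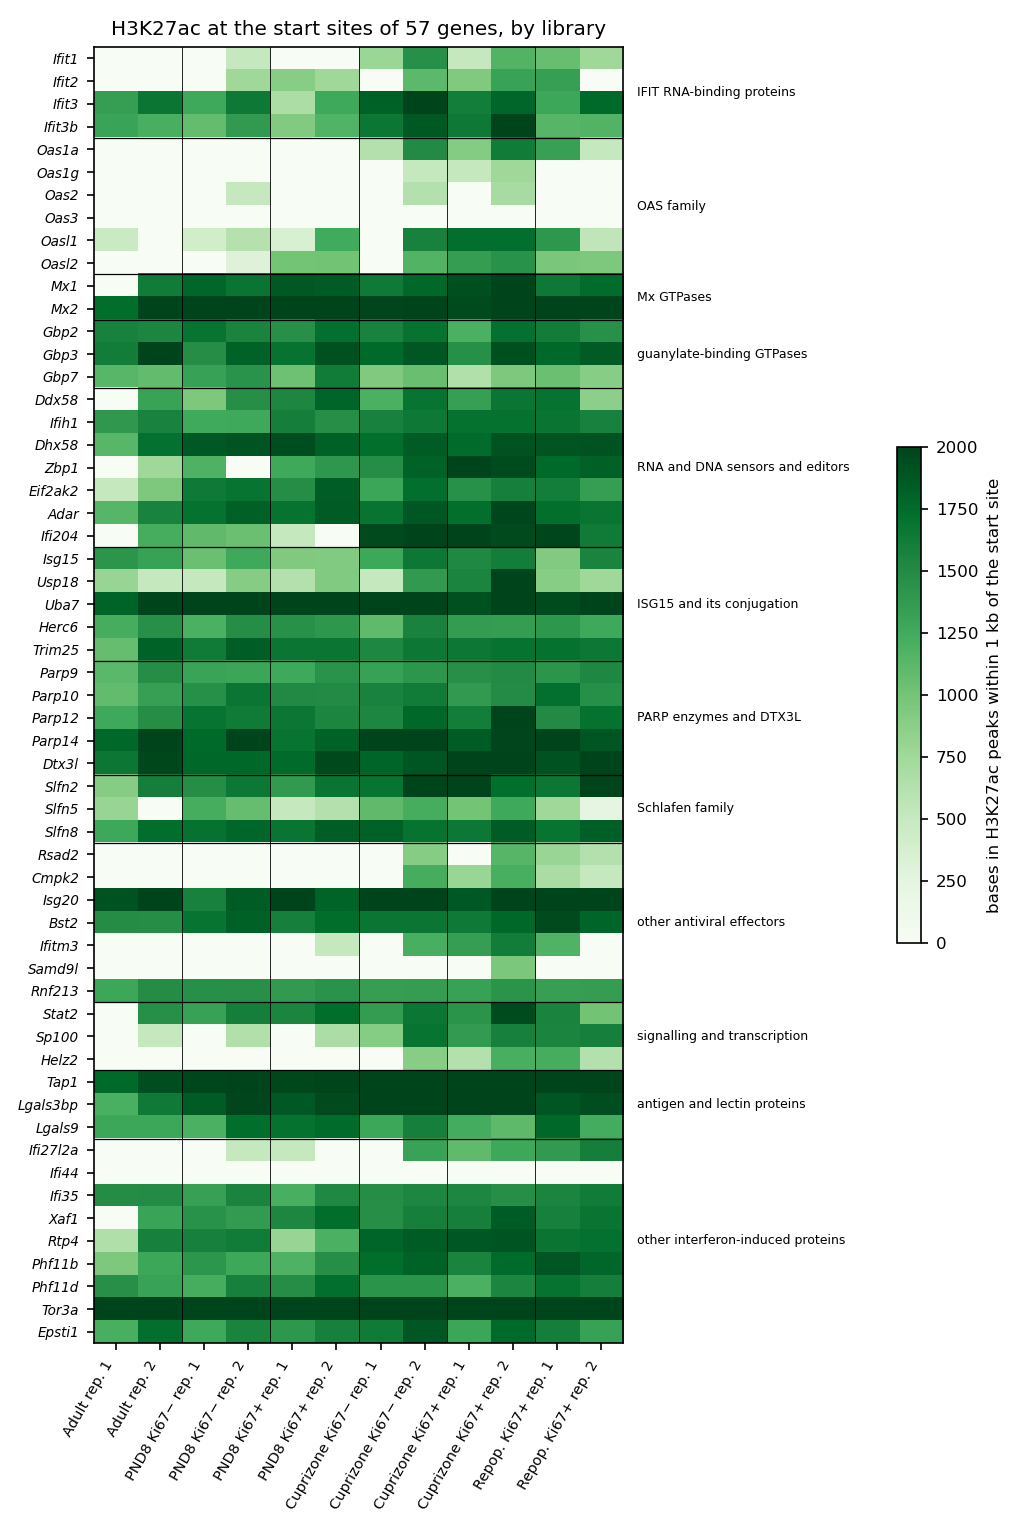
Each row is 1 of the 57 genes in the order of the RNA map, each column 1 H3K27ac library, and colour is the number of bases within 1 kb of the start site that lie in peaks (0 to 2000). Oas1a, Oas1g, Oasl2, Ifit1, Ifit2, Rsad2, Cmpk2, Ifitm3, Helz2 and Ifi27l2a are white in both adult columns and, at least in part, filled in the cuprizone columns. All of these but Oas1g are also filled, at least in part, in the repopulation columns. Oasl2, Ifit1, Ifit2, Ifitm3 and Ifi27l2a are filled in some PND8 columns as well. Oas3 and Ifi44 are white throughout.

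Genes without adult H3K27ac had the lower median RNA in adult cells, though single genes departed from this: Ifit3b, at 0.394 TPM, had a peak in both adult libraries and Ifitm3, at 13.6 TPM, in neither. The 14 genes with a peak in neither adult library had a median adult level of 2.28 TPM and a median log2 fold change of 3.67 in repopulating Ki67-positive cells; the 34 with a peak in both had 32.1 TPM and 1.07; the 9 with a peak in 1 had 9.03 TPM and 2.80. The RNA and chromatin libraries are separate cells, from mice that differ in age and genotype. A peak in both repopulating libraries and neither adult one was found at 7 of the 57 (12.3%, beside 4.56% of all genes): Ifit1, Oas1a, Oasl2, Rsad2, Cmpk2, Helz2 and Ifi27l2a. In cuprizone Ki67-positive cells the same rule gave 9 (15.8% of the 57, beside 3.35% of all genes): Ifit1, Ifit2, Oas1a, Oas1g, Oasl2, Cmpk2, Ifitm3, Helz2 and Ifi27l2a. The count was 2 in cuprizone Ki67-negative cells (Ifit1 and Oas1a, 1.64%), 2 in PND8 Ki67-positive cells (Ifit2 and Oasl2, 5.59%) and 0 in PND8 Ki67-negative cells (4.25%). No member had a peak in both adult libraries and in neither library of another group. Among all genes this was as rare, from 0.0409% (cuprizone Ki67-negative) to 0.139% (repopulation). All of these comparisons share the adult lists.

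At Oas1a, peaks covered 0 bases within 1 kb of the start in the adult and all 4 PND8 libraries, 629 and 1503 in cuprizone Ki67-negative, 914 and 1624 in cuprizone Ki67-positive and 1330 and 500 in repopulating cells. Oas1a and Oas2, whose RNA was higher at PND8 than in adult, had no start-site H3K27ac peak in both libraries of either PND8 sort. At Ifi27l2a the covered length was 0 in both adult libraries, 0 or 500 in the PND8 libraries, 0 and 1315 in cuprizone Ki67-negative, 1089 and 1277 in cuprizone Ki67-positive and 1377 and 1598 in repopulating cells. Ifi44 and Oas3, both under 1 TPM in adult, had 0 covered bases in all 12 libraries although their RNA rose in repopulation. Stat2 was covered over 0 and 1460 bases in the adult libraries and over 1005 to 1949 in the 10 others.

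Over 10 kb on each side of the start, more bases lay in peaks than in adult cells, with no overlap between groups, at 35 of 57 genes in cuprizone Ki67-positive cells (36.3% of all genes) and at 26 in cuprizone Ki67-negative cells (28.6%). In repopulation this held for 28 genes (52.1%), in PND8 Ki67-positive cells for 18 (48.0%) and in PND8 Ki67-negative cells for 14 (39.0%). The share among the 57 was thus above the background in cuprizone, near it in repopulation and below it at PND8. Few genes had fewer bases than adult: 1, Gbp7, in cuprizone Ki67-positive cells (3.87% of all genes) and the same 1 in cuprizone Ki67-negative cells (3.03%), 3 in repopulation (Ifit3b, Gbp7 and Isg15, 3.01%), 2 in PND8 Ki67-positive cells (Isg15 and Isg20, 5.26%) and 3 in PND8 Ki67-negative cells (Ifih1, Isg15 and Isg20, 6.76%). Cuprizone against PND8 shares no library: in Ki67-positive cells 27 genes had more covered bases in cuprizone (14.1% of all genes) and 3 fewer (20.0%), and in Ki67-negative cells 22 had more (16.7%) and 5 fewer (17.2%). Repopulation against PND8 Ki67-positive cells gave 23 with more (25.5%) and 3 with fewer (14.1%). Within the header code that 1 library of each shares, 30 genes had more (43.3% of all genes) and 22 fewer. The median difference was 37 bases beside 0 over all genes. Repopulation against cuprizone Ki67-positive cells gave 4 with more (26.3%) and 13 with fewer (8.48%), the latter including Ifit2, Ifit3, Oas1g, Oasl2, Ifih1, Isg15 and Usp18. Within the header code that 1 library of each of these shares, 44 of 57 genes had fewer bases in the repopulating than in the cuprizone library. The repopulating library had more at 11 genes, beside 41.6% of all genes. The median difference was -455 bases, beside 0 over all genes. Within another code, the repopulating library had more bases than the adult one at 35 genes (68.9% of all genes) and fewer at 17. The share of the 57 with more was thus below that of all genes. The median difference was 261 bases beside 282 over all genes. No share over all genes is given for the counts with fewer bases within a code.

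Promoters of most members, as of most genes, were open and carried H3K4me3 in adult cells. H3K4me3 was at the start site in both adult libraries for 50 of 57 genes (87.7%, beside 89.8% of all genes). Of the 57, 10 (17.5%) had H3K4me3 in both adult libraries and H3K27ac in neither, beside 13.2% of all genes: Ifit1, Ifit2, Oas1a, Oasl2, Rsad2, Cmpk2, Ifitm3, Samd9l, Helz2 and Ifi27l2a. An ATAC-seq peak was there for 47 genes in the adult library (82.5%, beside 88.3% of all genes), 48 at PND8 (84.2%, beside 89.2%) and 52 in repopulation (91.2%, beside 90.8%). Oas1a, Oas2, Oasl1, Sp100 and Ifi27l2a had one in the repopulating and not in the adult library (3.0% of all genes), and 0 members the reverse (0.523%). Isg15, Ifitm3, Oas1g, Oas3 and Ifi44, whose RNA rose in repopulation, had no ATAC-seq peak at the start in any of the 3 libraries. Each of these groups has 1 library, so there is no replicate check. Rpb2 was at the start site of 17 genes in both adult libraries (47.5% of all genes) and of 37 in the PND8 Ki67-positive library (80.4%). The PND8 list is the longest of the 3, and limited to the length of the shortest it gave 17 (56.4%, beside 17 and 45.4% in adult).

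Members with an ISRE match in the promoter window had a higher median change, which was not tested. The 20 with a match had a median of 2.36 for the mean log2 fold change of both repopulating sorts, from -0.26 (Gbp7) to 5.86 (Oas1g), and the 24 without had 1.32, from 0.29 (Epsti1) to 4.42 (Ifi44). At PND8 the medians were 0.12 and -0.13. The ranges overlapped almost wholly: Ifi44, Oasl1 (3.98) and Oasl2 (3.54) had no match, and Gbp7 had an ISRE match 53 bases before its start. Paralogs with near-identical promoters count separately in these medians, and the 13 genes without a promoter entry, Ifi27l2a, Oas2, Usp18 and Zbp1 among them, are in neither group.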

How the data were processed

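RNA, H3K27ac, H3K4me3, Rpb2 and ATAC-seq libraries of sorted mouse microglia were analysed; the 16 input libraries were not used. Per the submitters' processing notes, STAR 2.7.0f, Bowtie2 2.3.4.1, HOMER 4.11 and DESeq2 were among the tools, with build mm10/GRCm38. Per the file headers, the authors made the deposited read counts and the deposited TPM values with HOMER over exons of 1 transcript a gene, keeping at most 3 tags per position. That cap can hold down high or short genes. The strand setting is not given in the sources used here. Peaks were called on each library alone, per the file headers, with input except for ATAC-seq; the peak signal deposited by the authors is normalised to 10000000 tags, and the peak score deposited by the authors ranked peaks within a list.

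Counts were tested with edgeR 4.0.16 (R 4.3.3; filterByExpr, TMM, quasi-likelihood fit over all 10 RNA libraries, Benjamini-Hochberg adjustment over 12230 genes, threshold 0.05). An alternative used DESeq2 1.42.0, and another limma 3.58.1 on log2(TPM + 1) or log2(TPM + 0.1). The fit recovered known changes when tested on simulated data. A gene was marked when a peak overlapped its start by at least 1 bp within 1000 or 10000 bp. Further alternatives are listed in the closing section. Members and lists were chosen with earlier results of these data known. Named genes were 8 reference genes, the 10 largest rises in repopulation, members that fell or did not pass there, calls between Ki67 sorts, the 5 highest and 5 lowest changes at PND8, opposite calls, and H3K27ac gained over adult; some members were named beyond this rule as examples of their role, after their values were seen. Same-numbered libraries of both sorts deviated together (r = 0.338 at PND8, 0.263 in repopulation) but not across contexts (-0.01 to 0.0974), and the labels give no pairing, so no block was used in the tests reported. Tables and figures used Python 3.11.15, pandas 2.3.3, numpy 2.4.6 and matplotlib 3.10.9.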

Additional observations from a re-analysis of the deposited data

Results flagged for a closer look

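In 11 genes the change from adult cells was called lower at PND8 and higher in repopulation in both Ki67 sorts. The share of all genes with such opposite calls is not given. The lower call at PND8 held in both sorts without any 1 library for Ddx58, Ifih1, Uba7, Herc6, Dtx3l and Tor3a, and not for the other genes; the higher call in repopulation was lost without 1 library for Isg20 and Phf11d in both sorts. The difference between both changes, which equals repopulating against PND8 cells, is given as a description, since the choice of genes by opposite calls all but fixes it. In Ki67-positive cells it was 2.55 on the log2 scale for Gbp2, 2.31 for Isg20, 1.83 for Ddx58, 1.81 for Rnf213, 1.64 for Phf11d, 1.46 for Ifih1, 1.46 for Tor3a, 1.36 for Herc6, 1.23 for Uba7, 1.22 for Dtx3l and 0.81 for Parp10. In Ki67-negative cells the same differences ran from 0.76 to 3.35. The adult libraries set both signs, and their header code is shared with no other group.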

How the results depend on the processing

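The counts of members called in repopulating cells stayed within 1.5 times of those reported under each alternative run: without 1 library, 52 to 56 members were called in Ki67-positive and 52 to 55 in Ki67-negative cells against adult, and 55 to 57 against PND8. Their median log2 fold change stayed between 1.62 and 1.89 (Ki67-positive) and 1.72 and 1.95 (Ki67-negative) over all settings. PND8 counts moved: from 33 to 9 with a fold above 2 and 21 to 34 without 1 library (Ki67-positive), and from 34 to 10 with a fold above 2, 22 with only the compared groups fitted and 20 to 33 without 1 library (Ki67-negative). Between Ki67 sorts at PND8, 3 became 5 with a replicate block, 7 with the header code as a term and 1 to 7 without 1 library. In repopulation, 1 became 3 without the filter on low counts, 3 with a replicate block, 9 with the header code, 0 with limma at either pseudocount, 0 with a fold above 2 and 0 to 4 without 1 library. The interaction count of 0 became 4 without the filter, 2 with the header code and 0 to 1 without 1 library. Since the labels give no pairing, the replicate block is an alternative only; the other counts with the block were 57, 55, 34 and 37 against adult (repopulating Ki67-positive and Ki67-negative, PND8 Ki67-positive and Ki67-negative), 57 and 57 for repopulation against PND8, and 0 for the interaction. With the highest-scoring peaks up to the shortest list, repopulating cells had H3K27ac at 30 start sites rather than 50 and within 10 kb of 32 rather than 51, and the PND8 Rpb2 list 17 rather than 37. Signs turned for 5 values, none past the threshold as reported: Gbp7 in repopulating Ki67-negative cells (-0.16 to 0.027 without 1 library), Isg15 at PND8 (Ki67-positive -0.42 to 0.59 and Ki67-negative -0.45 to 0.58 without 1 library, -0.012 with the block), Ifit3 in PND8 Ki67-negative cells (-0.67 to 0.37 without 1 library, 0.030 with library sizes only) and Ifitm3 there (-0.19 to 1.10 without 1 library), which passed with the block (0.59, edgeR adjusted p = 0.0447), without the filter (0.65, 0.0109) and without PND8 Ki67-negative replicate 1 (1.10, 0.00811). The cause was not tested. With 2 libraries a group, 1 library decides many of the smaller calls, and genes under a few reads a library, such as Oas1g and Ifi44 in adult cells, have uncertain fold changes. No other scaling moved the median of all genes by 0.1 or more. For the member counts under these settings no shares over all genes are given here.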
